A study of Mus musculus with 2 samples.

Results

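The cytochrome P450 genes of families 1 to 3 were followed in livers that lacked the phospholipid-remodeling enzyme Lpcat3 in hepatocytes. All probe sets assigned to a single gene whose symbol begins with Cyp1, Cyp2 or Cyp3 followed by a letter and a number were taken, except those of Cyp2c29, Cyp2c44 (now Cyp2c23) and Cyp2j5, which were left out by choice. This gave 48 probe sets of 40 genes, out of 34945 single-gene probe sets of 18193 genes on the array. The L-Lpcat3 KO mice carried the albumin-Cre transgene on 2 floxed Lpcat3 alleles, and the Flox/Flox mice carried the same floxed alleles without Cre. Mice of both genotypes were males of 12 weeks of age on chow diet, and livers were taken after a fast of 6 hr. RNA of 5 mice was pooled per genotype and each pool was hybridized to 1 Affymetrix array, so that no variation among mice can be estimated and no test was possible. Albumin-Cre acts in hepatocytes. The authors named cell types without this Cre, such as Kupffer and endothelial cells, as the likely source of the Lpcat3 mRNA left in whole liver.

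P450 enzymes of these families are heme proteins of the endoplasmic reticulum that oxidize drugs, toxicants, steroids and fatty acids with electrons passed on from NADPH by P450 oxidoreductase and cytochrome b5. Many of the genes are induced in hepatocytes by nuclear receptors that sense foreign compounds: the aryl hydrocarbon receptor (AhR) acts on family 1, and CAR and PXR act on families 2 and 3. In the mouse they lie in clusters of close paralogs, and several members are expressed at higher levels in males or in females under the control of growth hormone. Their endogenous substrates include linoleic acid and arachidonic acid, a polyunsaturated chain that Lpcat3 places into phospholipids.

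Because paralogs are so alike, the sequences upstream of the start are shown for 4 pairs of members that bear on the ratios described later. Promoter windows from RefSeq (GRCm38.p6) were found for 33 of the 40 genes. Over the 250 bases before the start, identity was 99.2% between Cyp2b13 and Cyp2b9, 80.4% between Cyp2c38 and Cyp2c39, 86.0% between Cyp2c37 and Cyp2c50 and 94.4% between Cyp3a44 and Cyp3a16. The last 100 bases before each start follow, 5′ to 3′ on the strand of the gene, with capitals for bases that have no identical partner in the alignment of the pair. They lie at chr7:26061395-26061494 (+) for Cyp2b13 and chr7:26173309-26173408 (+) for Cyp2b9, at chr19:39463076-39463175 (-) for Cyp2c38 and chr19:39347246-39347345 (+) for Cyp2c39, at chr19:39992324-39992423 (+) for Cyp2c37 and chr19:40089579-40089678 (+) for Cyp2c50, and at chr5:145805875-145805974 (-) for Cyp3a44 and chr5:145469724-145469823 (-) for Cyp3a16.
Cyp2b13: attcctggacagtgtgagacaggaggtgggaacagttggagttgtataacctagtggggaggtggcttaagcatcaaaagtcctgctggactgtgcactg
Cyp2b9: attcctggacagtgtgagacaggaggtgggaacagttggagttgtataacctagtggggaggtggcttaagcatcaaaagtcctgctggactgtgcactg
Cyp2c38: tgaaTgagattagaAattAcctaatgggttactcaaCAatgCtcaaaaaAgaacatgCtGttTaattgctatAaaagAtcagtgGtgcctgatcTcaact
Cyp2c39: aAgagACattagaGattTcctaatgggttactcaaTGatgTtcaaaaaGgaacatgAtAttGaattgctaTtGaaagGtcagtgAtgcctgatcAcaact
Cyp2c37: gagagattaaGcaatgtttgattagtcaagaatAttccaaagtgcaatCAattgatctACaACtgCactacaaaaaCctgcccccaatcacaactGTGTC
Cyp2c50: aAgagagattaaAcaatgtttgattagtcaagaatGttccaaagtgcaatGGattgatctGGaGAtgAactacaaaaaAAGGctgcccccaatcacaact
Cyp3a44: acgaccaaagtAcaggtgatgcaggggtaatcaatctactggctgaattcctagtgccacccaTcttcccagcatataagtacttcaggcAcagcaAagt
Cyp3a16: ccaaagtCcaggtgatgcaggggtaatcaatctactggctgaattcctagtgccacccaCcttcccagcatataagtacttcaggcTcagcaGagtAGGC
These stretches show how alike the genes are in their flanks. They do not give the identity at the probes, whose sequences were not used here.

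A second set shows a binding element of HNF4, a nuclear receptor that keeps hepatocyte genes active. The motif CAAAGTCCA, searched on both strands (TGGACTTTG on the other), was found in 5 of 33 members and in 13.9% of their 36 windows, against 0.384% of all 32851 windows of the same length. Each match is printed in capitals within 30 bases on the strand of the gene. They lie at chr19:39060880-39060909 (+) for Cyp2c65, chr19:39741159-39741188 (-) for Cyp2c68, chr19:40187331-40187360 (-) for Cyp2c70, chr5:145879944-145879973 (-) for Cyp3a11 and chr5:145469803-145469832 (-) for Cyp3a16, with the match 107, 68, 55, 100 and 90 bases before the start in that order.
Cyp2c65: gatgttggaaCAAAGTCCActgggaggaga
Cyp2c68: atcattgaaaCAAAGTCCAattggaagaga
Cyp2c70: aggtcaaactCAAAGTCCAaactctgtgta
Cyp3a11: aagagagtacCAAAGTCCAgtgatgcaaag
Cyp3a16: aagagacgacCAAAGTCCAggtgatgcagg
A match describes these letters only. The TATA element TATAAA was looked for on both strands and found in 15 of the 33 members and in 41.7% of their windows, against 12.4% of all windows.

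Lpcat3 itself had a signal of 1305 in L-Lpcat3 KO livers and 3310.0 in Flox/Flox livers, which is 2.54-fold lower in L-Lpcat3 KO. The labelled tissue was checked with 6 hepatocyte markers, whose signals ran from 17086 to 52987 in L-Lpcat3 KO and from 18389 to 54827 in Flox/Flox, with a median log2 ratio of -0.053. Signals are MAS5 values on a linear scale, with both arrays scaled to a trimmed mean of 500.0. Signals under the median of all probe sets (76.4) were raised to that floor for ratios, and a gene counted as measured if at least 1 pool lay above it. Each gene was represented by its brightest probe set, and a positive log2 ratio means a higher signal in L-Lpcat3 KO than in Flox/Flox.

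Most drug-metabolizing P450 genes had nearly the same signal in both pools. Of the 40 members, 32 were measured, 30 of which exceeded the floor on both arrays and 2 (Cyp2b13 and Cyp2d12) in 1 pool. The other 8 stayed under the floor, with signals from 11.02 to 63.3 in L-Lpcat3 KO and from 4.42 to 59.2 in Flox/Flox. Among the 32, 29 lay within 1.5-fold, 2 were at least 1.5-fold higher in L-Lpcat3 KO (Cyp2b10 and Cyp2c38) and 1 was at least 1.5-fold lower (Cyp3a44). The 3 members past 1.5-fold make 9.38%, against 7.15% of all 12059 measured genes (4.01% higher and 3.14% lower), so their share was near the background. Only Cyp2b10 passed 2-fold, a size that 0.556% of all measured genes reached in the higher direction and 0.514% in the lower. The median log2 ratio was 0.020 over the measured members and 0.0032 over all measured genes. Ratios were above 0 in 17 members and below 0 in 15, and 12 of them, Cyp1a1, Cyp2a12, Cyp2c50, Cyp2d10, Cyp2d22, Cyp2d26, Cyp2e1, Cyp2f2, Cyp2j6, Cyp2r1, Cyp3a11 and Cyp3a25, had ratios so near 0 that the sign turned with the scaling of the arrays. For 7 of them it turned under median centring alone, which shifts every ratio above the floor by the same -0.079, and for 5 under quantile normalization or loess. In whole-liver RNA, fewer cells of a type and less RNA per cell cannot be told apart.

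**Figure D1:**
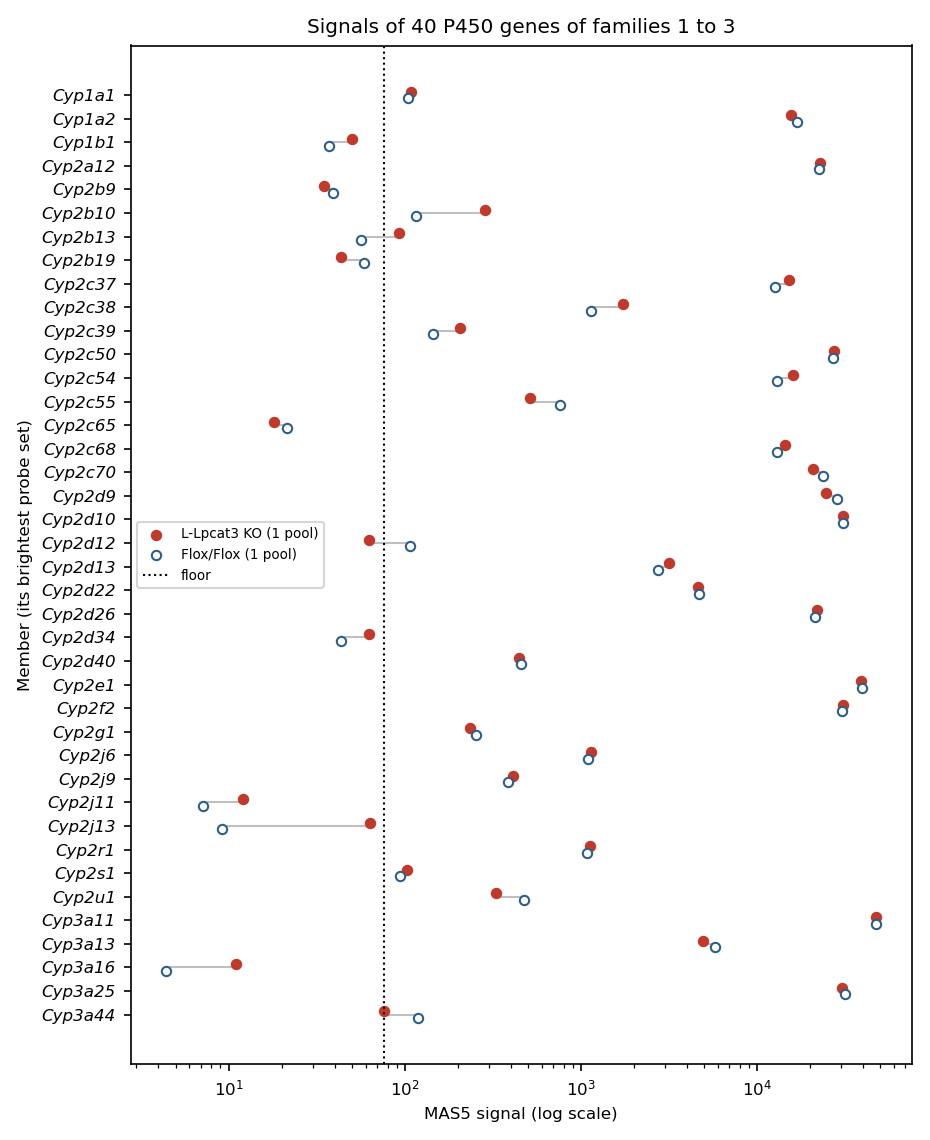
Signals of the 40 genes (rows, brightest probe set of each) on a log axis, filled for the L-Lpcat3 KO pool and open for the Flox/Flox pool, 1 array each, with the floor of 76.4 dotted. The points of most genes nearly coincide, while Cyp2b10, with 286 in L-Lpcat3 KO against 116 in Flox/Flox, stands apart above the floor.

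The size of the ratios went with the signal. The 14 members with a mean signal over 10000 had log2 ratios from -0.197 to 0.30, with a median of 0.0058, and none passed 1.5-fold; 0.381% of the 525 genes of such signal did so. Of the 18 measured members under that signal, 3 passed 1.5-fold (16.7%), against 7.46% of all 11534 measured genes of such signal. As a description of the scatter, the central 95% of genes with a mean signal from 76.4 to 400 spanned log2 ratios of -0.758 to 0.781, and of the 8 members in this range Cyp2b10 lay outside. From 400 to 2000 the span was -0.473 to 0.462, and Cyp2c38 and Cyp2c55 of 5 members lay outside. From 10000 to 20000 it was -0.303 to 0.265, with Cyp2c54 of 4 members outside. None of the 3 members between 2000 and 10000 and none of the 10 members over 20000 lay outside the span of its range. Without replicates these spans hold both measurement error and differences between the mice. The standard deviation of the log2 ratios fell from 0.384 in the lowest range to 0.109 over 20000. Cyp3a11, at 47403 in L-Lpcat3 KO, lay near the largest signal of any measured gene in that pool, 52987. Whether ratios are compressed at such signals was not tested, so a small ratio there need not mean equal expression.

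**Figure D2:**
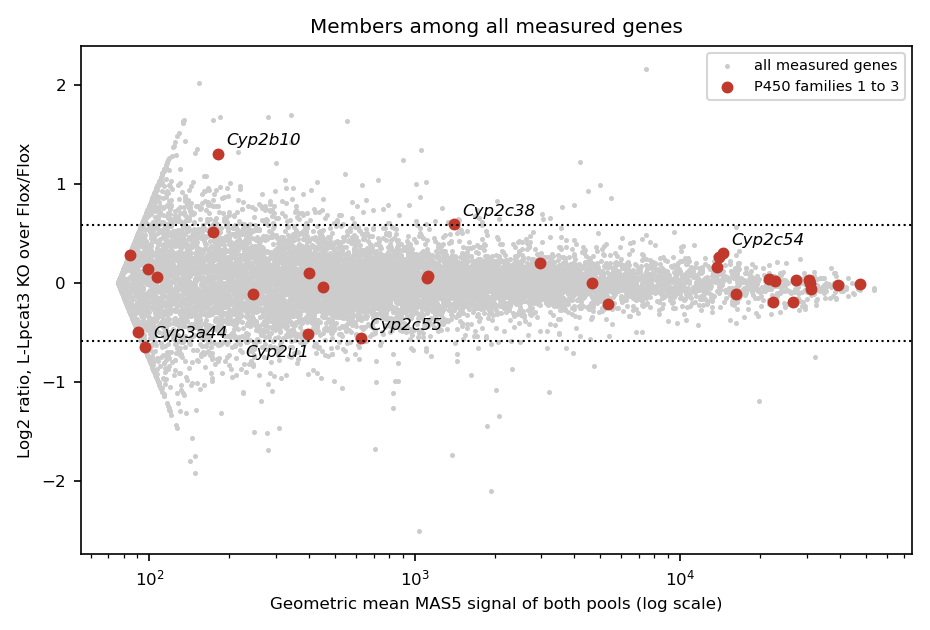
Log2 ratio, L-Lpcat3 KO against Flox/Flox, plotted over the geometric mean of the 2 signals (log axis), for all 12059 measured genes (grey) and the 32 measured P450 members (red), with dotted lines at 1.5-fold. The members spread more at low signal, and the 14 over 10000 lie between -0.197 and 0.30.

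Family 1 is the branch that AhR induces in response to aromatic hydrocarbons. Cyp1a2, which oxidizes caffeine and aryl amines in hepatocytes, had a signal of 15679.8 in L-Lpcat3 KO and 16892 in Flox/Flox (log2 ratio -0.11). Cyp1a1, which activates polycyclic aromatic hydrocarbons, had 109 in L-Lpcat3 KO and 104 in Flox/Flox, both just above the floor. All 3 probe sets of Cyp1b1, which acts mainly outside the liver, lay below the floor in both pools. Hence neither measured gene of the family was 1.5-fold apart, against 7.15% of all measured genes.

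The Cyp2a member Cyp2a12, a steroid hydroxylase, had 22875 in L-Lpcat3 KO and 22609 in Flox/Flox (log2 ratio 0.017, of which the sign turned under median centring). A probe set that lists both Cyp2a5 and Cyp2a4 belongs to no single gene. Cyp2a5 oxidizes coumarin and nicotine, and Cyp2a4 is a steroid hydroxylase. Its signal was 26972 in L-Lpcat3 KO and 26276 in Flox/Flox (log2 ratio 0.038).

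Cyp2b10 is the classical gene that CAR switches on in response to phenobarbital, and it was the member that differed most between the pools. Its brightest probe set had a signal of 286 in L-Lpcat3 KO and 116 in Flox/Flox, 2.47-fold higher (log2 ratio 1.30). The other probe sets of the gene did not follow it. A second one had 169 in L-Lpcat3 KO and 145 in Flox/Flox (log2 ratio 0.22). The remaining set, designed on the same transcript entry as the first, had 120 in L-Lpcat3 KO and 176 in Flox/Flox, 1.47-fold lower (log2 ratio -0.555). Both probe sets with a higher signal in L-Lpcat3 KO carry the suffix _s_at, by which the manufacturer marks probe sets that several genes share, while the remaining set carries the plain suffix _at. The direction for Cyp2b10 thus depended on the probe set, and all 6 of its signals lay between 115.7 and 285.6.

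The other Cyp2b genes were at or near the floor. Cyp2b13, a gene expressed mainly in female liver, had 93.1 in L-Lpcat3 KO and 56.6 in Flox/Flox, which lay under the floor, so that it was at least 1.22-fold higher. Cyp2b9, also female-biased and identical to Cyp2b13 in the stretch printed for both, had 35.1 in L-Lpcat3 KO and 39.2 in Flox/Flox, both under the floor. Cyp2b19, an arachidonic acid epoxygenase of skin, had 43.5 in L-Lpcat3 KO and 59.2 in Flox/Flox.

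The Cyp2c genes hydroxylate and epoxidize arachidonic acid and other fatty acids as well as drugs. Of 9 members 8 were measured, 6 with a ratio above 0 and 2 below, and their median log2 ratio was 0.21. Cyp2c38, a gene that acts on arachidonic acid, had a signal of 1730 in L-Lpcat3 KO and 1145 in Flox/Flox, 1.51-fold higher (log2 ratio 0.595). Its neighbour and close paralog Cyp2c39, which hydroxylates retinoic acid, had 207 in L-Lpcat3 KO and 145 in Flox/Flox, 1.43-fold higher. Both were higher in L-Lpcat3 KO, Cyp2c38 just past 1.5-fold and Cyp2c39 just under it. The log2 ratio of Cyp2c39, 0.513, lay inside the span for signals from 76.4 to 400, which ended at 0.781. Each gene has a single probe set, and whether that of Cyp2c39 also captures Cyp2c38 was not tested. The log2 ratio of Cyp2c38 fell short of 1.5-fold after median centring (0.516) and with a pseudocount in place of the floor (0.564).

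Cyp2c54, Cyp2c37 and Cyp2c50, which oxidize arachidonic and linoleic acid, lie next to each other on the chromosome. Cyp2c54 had 16035 in L-Lpcat3 KO and 13032 in Flox/Flox, 1.23-fold higher. Cyp2c37 had 15300.0 in L-Lpcat3 KO and 12789 in Flox/Flox (log2 ratio 0.26). Cyp2c50 had 27639 in L-Lpcat3 KO and 27181 in Flox/Flox (log2 ratio 0.024), and its sign turned under median centring. Cyp2c37 and Cyp2c50, which have like upstream flanks, thus had log2 ratios of 0.26 and 0.024, each from a single probe set. On the array, 2 probe sets of the same gene differed by a median of 0.197 and by 0.611 at the 90th percentile. These 2 ratios therefore do not set the genes apart. Cyp2c68 had 14520 in L-Lpcat3 KO and 13037 in Flox/Flox (log2 ratio 0.155).

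At both ends of the row of measured members the ratios were below 0. Cyp2c55, an arachidonic acid hydroxylase that CAR and PXR induce, had 515 in L-Lpcat3 KO and 759 in Flox/Flox, 1.48-fold lower (log2 ratio -0.56). Cyp2c70, which makes the muricholic acids of mouse bile, had 21002 in L-Lpcat3 KO and 23941 in Flox/Flox (log2 ratio -0.19). Along chromosome 19 the measured members run Cyp2c55, Cyp2c39, Cyp2c38, Cyp2c68, Cyp2c37, Cyp2c54, Cyp2c50 and Cyp2c70. Among these, the 6 with a ratio above 0 are consecutive. Cyp2c29 and Cyp2c44, left out by choice, are not part of this order. Cyp2c65, between Cyp2c55 and Cyp2c39, was under the floor in both pools, and Cyp2c66, Cyp2c67, Cyp2c40 and Cyp2c69 have no single-gene probe set and were not analysed here. Which of these paralogs the Cyp2c68 probe set also captures was not tested; the upstream identity of Cyp2c68 and Cyp2c69 was 92.8%.

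**Figure D3:**
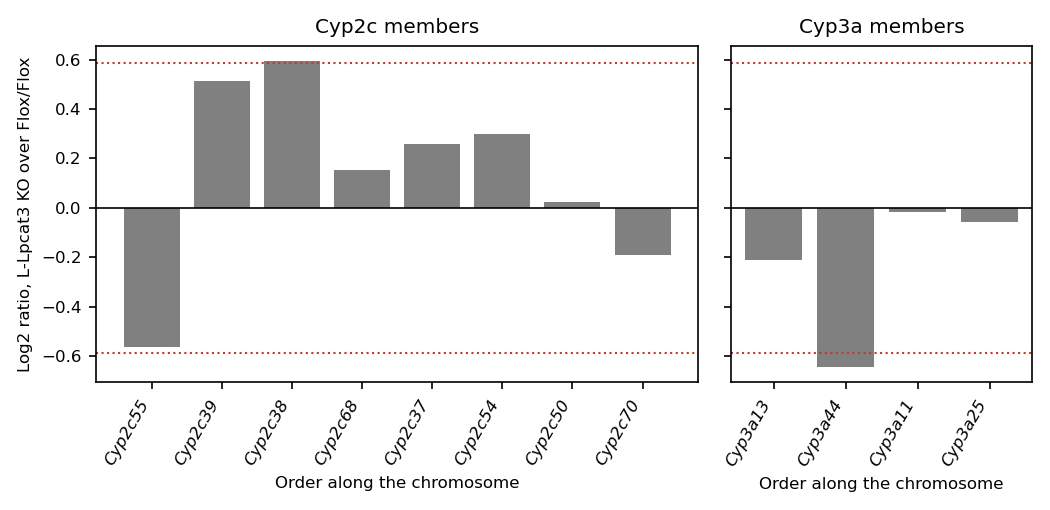
Log2 ratio, L-Lpcat3 KO against Flox/Flox, for the measured Cyp2c members (left, chromosome 19) and Cyp3a members (right, chromosome 5) in their order along the chromosome, 1 bar per gene, with dotted lines at 1.5-fold. The 6 Cyp2c genes from Cyp2c39 to Cyp2c50 lie above 0 between Cyp2c55 at -0.56 and Cyp2c70 at -0.19, and all 4 Cyp3a genes lie below 0, but Cyp2c50, Cyp3a11 and Cyp3a25 turned sign under other scalings.

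The Cyp2d genes, relatives of the human drug-metabolizing CYP2D6, centred on 0. Of 8 members 7 were measured, with a median log2 ratio of -0.00525 and none past 1.5-fold, against 7.15% of all measured genes. Cyp2d9, a testosterone hydroxylase expressed mainly in male liver, had 24826 in L-Lpcat3 KO and 28457 in Flox/Flox (log2 ratio -0.20). Cyp2d10 had 30869.7 in L-Lpcat3 KO and 30982 in Flox/Flox, and Cyp2d26 had 21900.0 in L-Lpcat3 KO and 21374 in Flox/Flox. The 2 probe sets of Cyp2d22 had 4668 and 4366 in L-Lpcat3 KO, against 4678 and 3956 in Flox/Flox. Cyp2d13, annotated as a transcribed pseudogene, had 3177 and 1713 in L-Lpcat3 KO, against 2768 and 1757 in Flox/Flox. Cyp2d40 had 444 in L-Lpcat3 KO and 458 in Flox/Flox. Cyp2d12 had 62.6 in L-Lpcat3 KO, under the floor, and 108 in Flox/Flox, so that it was at least 1.41-fold lower, and Cyp2d34 was under the floor in both pools.

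The single-gene branches of family 2 include enzymes that mark zones of the liver lobule. Cyp2e1, which oxidizes ethanol and acetaminophen around the central vein, had 39155 in L-Lpcat3 KO and 39645 in Flox/Flox (log2 ratio -0.018). Cyp2f2, which activates naphthalene and is found around the portal vein, had 30956 in L-Lpcat3 KO and 30435 in Flox/Flox (log2 ratio 0.0245). Both log2 ratios were close to 0, and their signs turned under other scalings. Cyp2r1, which hydroxylates vitamin D, had 1132 in L-Lpcat3 KO and 1093 in Flox/Flox. The fatty acid epoxygenase Cyp2j6 had 1149 and 956 in its 2 probe sets in L-Lpcat3 KO, against 1094 and 1001 in Flox/Flox, and Cyp2j9 had 413 in L-Lpcat3 KO and 385 in Flox/Flox. These ratios were small, from 0.050 to 0.10 for the brightest probe set of each gene.

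Cyp2g1, best known from olfactory mucosa, had 236 in L-Lpcat3 KO and 254 in Flox/Flox, and Cyp2s1, best known from epithelia outside the liver, had 104 in L-Lpcat3 KO and 93.6 in Flox/Flox. Cyp2u1, a fatty acid hydroxylase in humans, had 331 in L-Lpcat3 KO and 474 in Flox/Flox, 1.43-fold lower, by its brightest probe set. Its other probe set had 131 in L-Lpcat3 KO and 113 in Flox/Flox (log2 ratio 0.22), the opposite direction. Cyp2j11 and Cyp2j13 were under the floor in both pools; for Cyp2j13 the values were 63.3 in L-Lpcat3 KO and 9.18 in Flox/Flox.

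Cyp3a11, the main PXR target and the mouse relative of human CYP3A4, had 47403 in L-Lpcat3 KO and 47921 in Flox/Flox (log2 ratio -0.016). Cyp3a25 had 30531 in L-Lpcat3 KO and 31786 in Flox/Flox, and Cyp3a13 had 4989 in L-Lpcat3 KO and 5769 in Flox/Flox (log2 ratio -0.21). Cyp3a44, a gene of female liver, had 76.8 in L-Lpcat3 KO and 120 in Flox/Flox, 1.56-fold lower (log2 ratio -0.64), with the value in L-Lpcat3 KO practically at the floor. All 4 measured Cyp3a genes had a ratio below 0, and the median was -0.13. This count was 2 of 4 after quantile normalization and 3 of 4 after loess, since Cyp3a11 turned above 0 under both and Cyp3a25 under the first. Cyp3a16, a gene of fetal and female liver, was under the floor, with 11.02 in L-Lpcat3 KO and 4.42 in Flox/Flox. A probe set that lists both Cyp3a41b and Cyp3a41a, which are female-biased, had 220.1 in L-Lpcat3 KO and 303 in Flox/Flox, 1.38-fold lower.

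Cross-hybridization was judged from the probe set suffixes and from genes with several probe sets. Of the 48 member probe sets 41 carry _at, 4 carry _a_at (several transcripts of 1 gene), 3 carry _s_at and 0 carry _x_at. The 3 shared ones are a pair of Cyp2b10 and that of Cyp2c65. RefSeq lists 57 coding genes in these families, without the genes left out, of which 39 are members, 4 are seen only by probe sets that list several genes and 14 have no single-gene probe set, so a transcript of an unlisted paralog can contribute to a listed one. In 5 members at least 2 probe sets lay above the floor in both pools, and the 2 brightest had the same sign in 1 of them, against 54.1% of 4495 such genes on the array. They differed by 1.08 on the log2 scale for Cyp2b10, 0.735 for Cyp2u1, 0.236 for Cyp2d13, 0.145 for Cyp2d22 and 0.136 for Cyp2j6. Over all such genes the median difference was 0.197 and the 90th percentile 0.611, which Cyp2b10 and Cyp2u1 exceeded. In both members the second probe set had a signal under 400. Among the 2309 genes with such a second probe set the 90th percentile was 0.746, which Cyp2b10 exceeded and Cyp2u1 did not. The part of cross-hybridization in these differences was not tested.

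**Figure D4:**
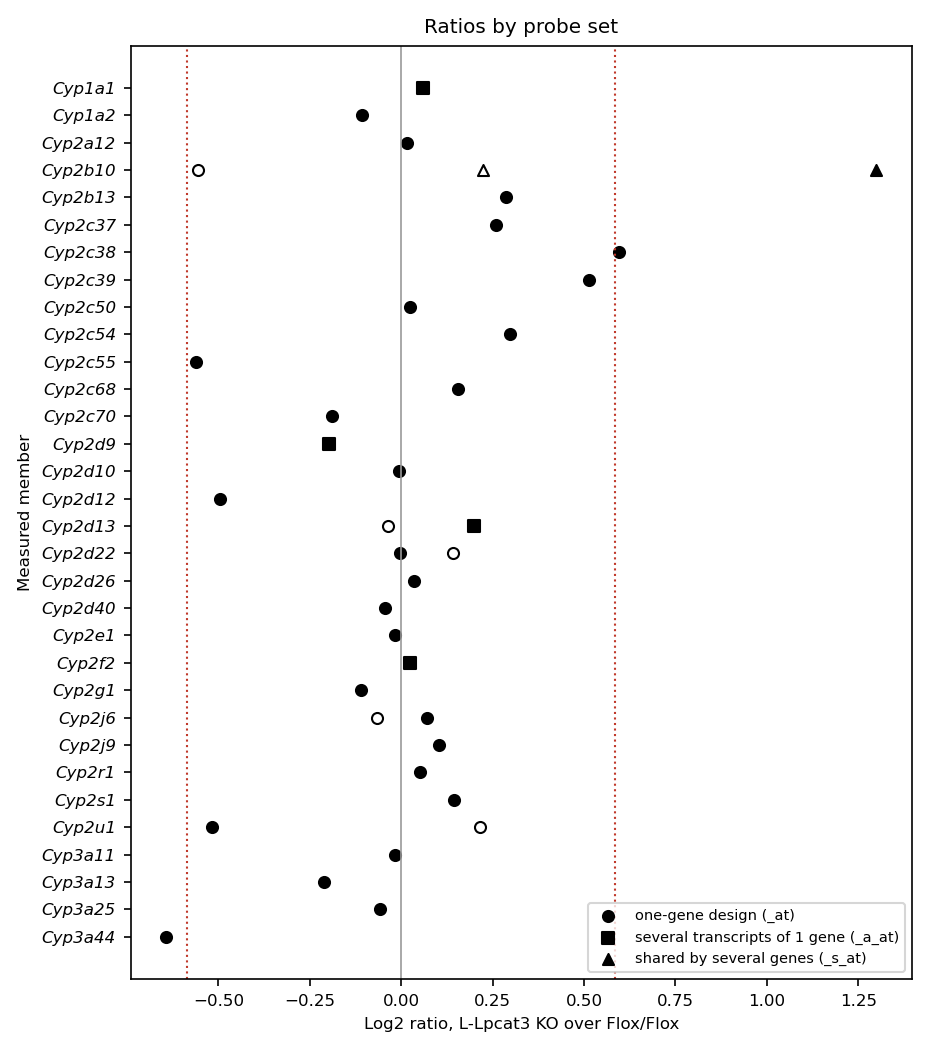
Log2 ratio, L-Lpcat3 KO against Flox/Flox, for every probe set of the 32 measured members, with the brightest one of each gene filled, the others open, the marker shape giving the suffix class and dotted lines at 1.5-fold. The 3 probe sets of Cyp2b10 spread from -0.555 to 1.30 and the pair of Cyp2u1 from -0.52 to 0.22.

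The regulators of these genes, like most measured genes, stayed within 1.5-fold. None of 15 measured regulators was 1.5-fold apart, against 7.15% of all measured genes, and their median log2 ratio was -0.024. CAR (Nr1i3) had 3307 in L-Lpcat3 KO and 3227 in Flox/Flox, PXR (Nr1i2) had 1384 in L-Lpcat3 KO and 1174 in Flox/Flox (log2 ratio 0.24), and Ahr had 3630.5 in L-Lpcat3 KO and 3287 in Flox/Flox (log2 ratio 0.14). Cebpa, a hepatocyte transcription factor, had 8213 in L-Lpcat3 KO and 8115 in Flox/Flox. Hnf4a had 17086 in L-Lpcat3 KO and 18389 in Flox/Flox. Of the members with its printed element Cyp2c68 had a log2 ratio of 0.155, Cyp2c70 of -0.19 and Cyp3a11 of -0.016. Cyp2c65 and Cyp3a16, which also carry it, were under the floor in both pools. Stat5b and Bcl6, through which growth hormone sets sex bias, had log2 ratios of -0.21 and -0.27. Of the male-biased members Cyp2d9 lay at -0.20, and Cyp2u1 at -0.52 by its brightest probe set but at 0.22 by the other. The female-biased Cyp3a44 lay below 0 and Cyp2b13 above. By sex bias the members thus went in no single direction.

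Grouped by inducer, 7 members are known CAR or PXR targets, of which 1 (Cyp2b10) was at least 1.5-fold higher and 0 were lower, with a median of 0.024. Over all measured genes 4.01% were that much higher and 3.14% lower. The single call rests on the brightest Cyp2b10 probe set, since the log2 ratio was 0.324 by the mean of its probe sets and -0.555 without shared ones. Cyp2c55 of this group was 1.48-fold lower, and it passed 1.5-fold lower after median centring. Of 10 other CAR and PXR targets outside the P450 families, 1 was at least 1.5-fold higher and 0 were lower, with a median of 0.073. That gene was Gadd45b, a stress gene, with 158 in L-Lpcat3 KO and 92.2 in Flox/Flox, 1.71-fold higher. The bile acid and conjugate exporter Abcc3 had 7658 in L-Lpcat3 KO and 5738 in Flox/Flox (log2 ratio 0.42), whereas Aldh1a1 and Gstm1 had log2 ratios of -0.013 and -0.070. Abcc3 lay above the span for signals from 2000 to 10000, which ended at 0.36. Of the other AhR targets, 2 of 4 were measured, and Nqo1, a quinone reductase, had 374 in L-Lpcat3 KO and 216 in Flox/Flox, 1.73-fold higher, beside Tiparp at a log2 ratio of 0.11. Nqo1 was thus past 1.5-fold while Cyp1a1 and Cyp1a2 were not.

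The measured partners that P450 enzymes need stayed within 1.5-fold. Over all measured genes 7.15% passed that size, so counts of 0 in the short lists below do not set them apart. Pgrmc2 and Alas1 lay above the central span of their signal range but inside that of the next lower range. Pgrmc2, listed as an electron partner, had 2397 in L-Lpcat3 KO and 1833 in Flox/Flox (log2 ratio 0.387). The span for signals from 2000 to 10000 ended at 0.36, and that from 400 to 2000 at 0.462. None of 5 electron partners was 1.5-fold apart; cytochrome b5 (Cyb5a) had 30313 in L-Lpcat3 KO and 30530 in Flox/Flox, the heme-binding protein Pgrmc1 had 33356 in L-Lpcat3 KO and 35029.9 in Flox/Flox, and P450 oxidoreductase was not analysed here. None of 8 genes of heme synthesis and breakdown was 1.5-fold apart, with a median of 0.085. Alas1, the first enzyme of heme synthesis, had 25033 in L-Lpcat3 KO and 21601 in Flox/Flox (log2 ratio 0.21). The span for signals over 20000 ended at 0.153, and that from 10000 to 20000 at 0.265. Fech, the last enzyme, had 6598 in L-Lpcat3 KO and 6438 in Flox/Flox. Of zonation genes outside these families, 0 of 8 pericentral and 0 of 6 periportal ones passed 1.5-fold, with medians of -0.0545 and -0.051. Pericentral Glul and Oat had log2 ratios of -0.19 and 0.037, and periportal Cps1 and Arg1 had -0.0082 and 0.053. The periportal list ran from -0.57 for Cdh1, 1.48-fold lower, through -0.25 for Hal, to 0.0755 for Ass1. Cdh1 lay below the span for signals from 400 to 2000, which began at -0.473. The 5 pericentral members ranged from -0.11 to 0.30.

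**Figure D5:**
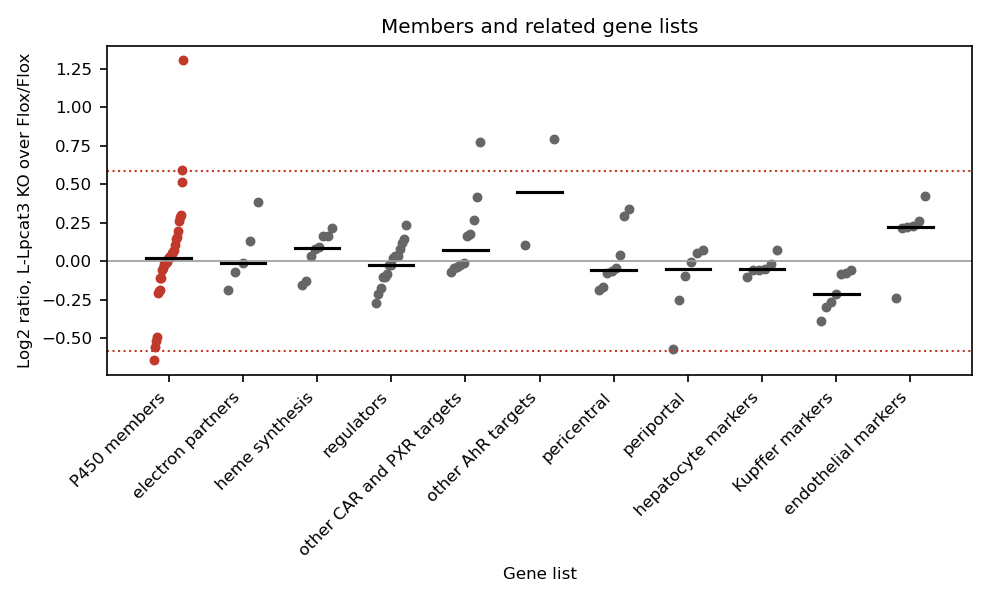
Log2 ratio, L-Lpcat3 KO against Flox/Flox, for the 32 measured P450 members (red) and for lists of related genes and hepatocyte, Kupffer cell and endothelial markers (grey), 1 point per gene, with a black bar at the median of each list and dotted lines at 1.5-fold. Of the genes plotted, 3 P450 members, Gadd45b and Nqo1 lie past 1.5-fold.

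None of the Kupffer cell, endothelial or stellate cell markers was 1.5-fold apart, whereas 2 of 3 measured bile duct markers, all near the floor, were. The share over all measured genes was 7.15%. Among the measured bile duct markers only Sox9 lay above the floor in both pools. Of all such genes with a mean signal from 76.4 to 400, 12.2% were 1.5-fold apart, a share that does not cover Epcam and Krt7. All 7 Kupffer cell markers lay below 0, with a median log2 ratio of -0.21 and signals from 172 to 2921 in L-Lpcat3 KO and from 183 to 3083 in Flox/Flox. Of 6 endothelial markers 5 lay above 0, with a median of 0.22. The 5 stellate cell markers had a median of 0.031, and the bile duct marker Krt19 was under the floor in both pools. Sox9 had 77.6 in L-Lpcat3 KO and 162 in Flox/Flox, 2.08-fold lower. Epcam had 128 in L-Lpcat3 KO and 58.4 in Flox/Flox, under the floor, at least 1.68-fold higher. Krt7 had 101 in L-Lpcat3 KO and 57.7 in Flox/Flox, under the floor, at least 1.32-fold higher. Of the intestinal markers Vil1 was under the floor in both pools, whereas Fabp2, a fatty acid binding protein that hepatocytes also express, had 7372 in L-Lpcat3 KO and 4087 in Flox/Flox, 1.8-fold higher. Both lung markers and the kidney markers Umod and Slc12a1 were under the floor, and Kap had 113 in L-Lpcat3 KO and 96.95 in Flox/Flox. The part of cell composition in the P450 ratios was not tested.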

How the data were processed

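Total liver RNA of 5 mice was pooled per genotype and hybridized to 1 Affymetrix mouse expression array. The authors deposited an intensity per probe set, named MAS5 signal in the submitters' processing notes, not in log form; which software release made them is unknown here. The precision is limited by the number of arrays, 1 per genotype. Of 45101 probe sets, 34945 had 1 gene through the platform annotation, with symbols updated to RefSeq (GRCm38.p6). Log2 ratios were taken above a floor of 76.4, without further scaling. Named were members past 1.5-fold, the 2 brightest of each subfamily, members whose probe sets disagreed, and from each related list the genes past 1.5-fold and the 2 brightest; other genes were chosen after their values were seen. The members and lists were chosen with earlier results of these data known. Scripts (Python 3.11.15, pandas 2.3.3, numpy 2.4.6, biopython 1.88, statsmodels 0.14.6) were tested on simulated data. Alternatives to scaling, floor and gene summary were run.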

Additional observations from a re-analysis of the deposited data

Results flagged for a closer look

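A pair of probe sets of these families lists several genes and was kept out of all counts, yet carried signal above the floor. The probe set of Cyp3a41b and Cyp3a41a had 220.1 in L-Lpcat3 KO and 303 in Flox/Flox (log2 ratio -0.46). The probe set of Cyp2a5 and Cyp2a4 had 26972 in L-Lpcat3 KO and 26276 in Flox/Flox (log2 ratio 0.038). Which gene of each pair gave the signal was not tested.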

How the results depend on the processing

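No paired analysis was possible because each genotype is 1 array, and no array could be left out. Among 9 other settings, median centring left 1 member at least 1.5-fold higher, without Cyp2c38, and 3 lower (Cyp2c55, Cyp2u1 and Cyp3a44), against 2 and 1 as reported; over all genes the counts were 360 higher and 518 lower, against 483 and 379. It also put 10 members above 0, against 17 as deposited, 20 after quantile normalization and 21 after loess, and 12 members changed sign under at least 1 scaling, 7 of them under median centring alone, a common shift of -0.079. The counts of members higher and lower were 4 and 2 with a lower floor (25th percentile of signals), 1 and 0 with a higher floor (75th percentile), 6 and 2 with no floor, and 1 and 0 with a pseudocount, where Cyp2c38 and Cyp3a44 were lost. With the mean of probe sets, or without _s_at and _x_at probe sets, 1 member was higher and 1 lower. All genes past 1.5-fold made 19.5%, 1.6%, 27.9%, 4.95%, 6.11% and 7.17% in these settings, in the same order. Without _s_at and _x_at probe sets the log2 ratio of Cyp2b10 was -0.555 and the Cyp2b median -0.134. By the second brightest probe set, chosen after seeing the data, Cyp2b10 had 0.22 and Cyp2u1 0.22. The median over members was -0.059 after median centring, where that of all genes was -0.074. Signals near the floor limit Cyp2b10, Cyp2b13, Cyp2d12 and Cyp3a44, and Gadd45b outside these families.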
